A study of Mus musculus with 12 samples.

Results

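T and NK cell genes are described here: 37 genes, of 31791 gene names on the array, that were listed by name as marking T lymphocytes and natural killer (NK) cells or their effector proteins. The genes were listed by function, with earlier results of these data known, and each gene is read from its brightest probe. For 26 of the 37 the scanner rated 3 or more of the 12 arrays as well above background, and these were tested. The other 11 were not tested, and 5 of them (Ctla4, Il2ra, Klrb1c, Klrk1 and Ncr1) were not well above background on any array. The defining T cell genes Cd3d and Cd3e were measured on all 12 arrays and Cd3g on 8, while Ncr1 and Klrb1c, the defining NK cell genes, were measured on none. The data therefore describe T cell genes and effector genes that NK cells share, and hold no level for NK cells by their own receptors.

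Liver RNA was hybridised to 1-colour expression arrays from mice deficient in Factor VII activating protease (FSAP, gene Habp2), a plasma serine protease made by hepatocytes, and from their FSAP+/+ littermates (WT). All 12 mice were 20 to 30 weeks old, came from heterozygous crossings, and belonged to a line crossed onto the BalbC strain as far as generation F3. Within each genotype, 3 mice had the common bile duct tied (bile duct ligation, BDL), a model of obstructive cholestasis with ductular reaction and scarring, and 3 had sham surgery. Livers were frozen 2 weeks later. The 4 groups of 3 are called WT sham, WT BDL, FSAP-/- sham and FSAP-/- BDL, and whole liver was used, so that fewer cells of a type and less RNA per cell cannot be told apart.

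T cells recognise peptide antigen through a receptor whose signal is carried by the CD3 chains. The kinase LCK phosphorylates tyrosine motifs in these chains, ZAP70 docks there, and the adaptor LAT passes the signal on. Cytotoxic T cells and NK cells kill with perforin and granzymes, whereas regulatory T cells, set by the factor FOXP3, restrain responses, and checkpoint receptors such as PD-1 appear on activated T cells. The healthy liver holds resident T and NK cells, and the obstructed liver is infiltrated by leukocytes.

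Signals are given as log2 of the scanner's processed signal minus the 75th percentile of the array, so that a value below 0 is dimmer than the upper quartile of spots, and a difference of 1 is a 2-fold difference. Probes differ in brightness for reasons of their own, so levels are compared between arrays and not between genes. The upper quartile lay between 475 and 1202 signal units, and 54.5% to 62.3% of spots were well above background. Habp2 read between 4.97 and 5.50 on the WT arrays, and -7.18 to -6.72 on 5 FSAP-/- arrays. FSAP-/- sham array 1 read -3.45, above background, and this array also stood on a slide and a scan day of its own. The Y-linked gene Ddx3y was well above background, and Xist was not, on FSAP-/- sham array 1 and on FSAP-/- BDL arrays 1 and 2, whereas Ddx3y was not on any WT array. These 3 arrays also held the extreme values of many genes below, and the results are therefore given with and without them.

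After BDL, the T and NK cell genes that passed the test were mostly lower in WT liver and mostly higher in FSAP-/- liver. In WT, 12 of the 26 tested members fell (adjusted p under 0.05, where 17.7% of all 19495 genes tested were lower) and 1 rose (15.2% of all genes were higher, and 32.9% passed in either direction). In FSAP-/- mice 8 rose (16.2% of all genes) and 2 fell (22.9%, with 39.1% in either direction). Of the 12 that fell in WT, Lat and Tbx21 entered the tests only with the WT sham arrays, where they were high. Of the 8 that rose in FSAP-/-, Pdcd1, Tnfrsf18 and Il7r entered only with the FSAP-/- BDL arrays. The calls of these genes in that direction are no support beyond their values. The median log2 change of the 26 was -1.04 in WT, beside -0.034 over all genes, and 0.58 in FSAP-/-, beside -0.16. For 15 of the 26 in WT and 11 in FSAP-/- the groups did not overlap, as for 52.1% and 47.4% of all genes. With the 5 WT changes that have only a bound set to that bound, the WT median was -0.75. The test of the difference itself, the interaction of genotype and BDL, called none of the 26 (limma). It called 2 of all genes (0.0103%), while 15 members had an unadjusted p under 0.05, as had 2674 of all 19495 genes.

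**Figure D1:**
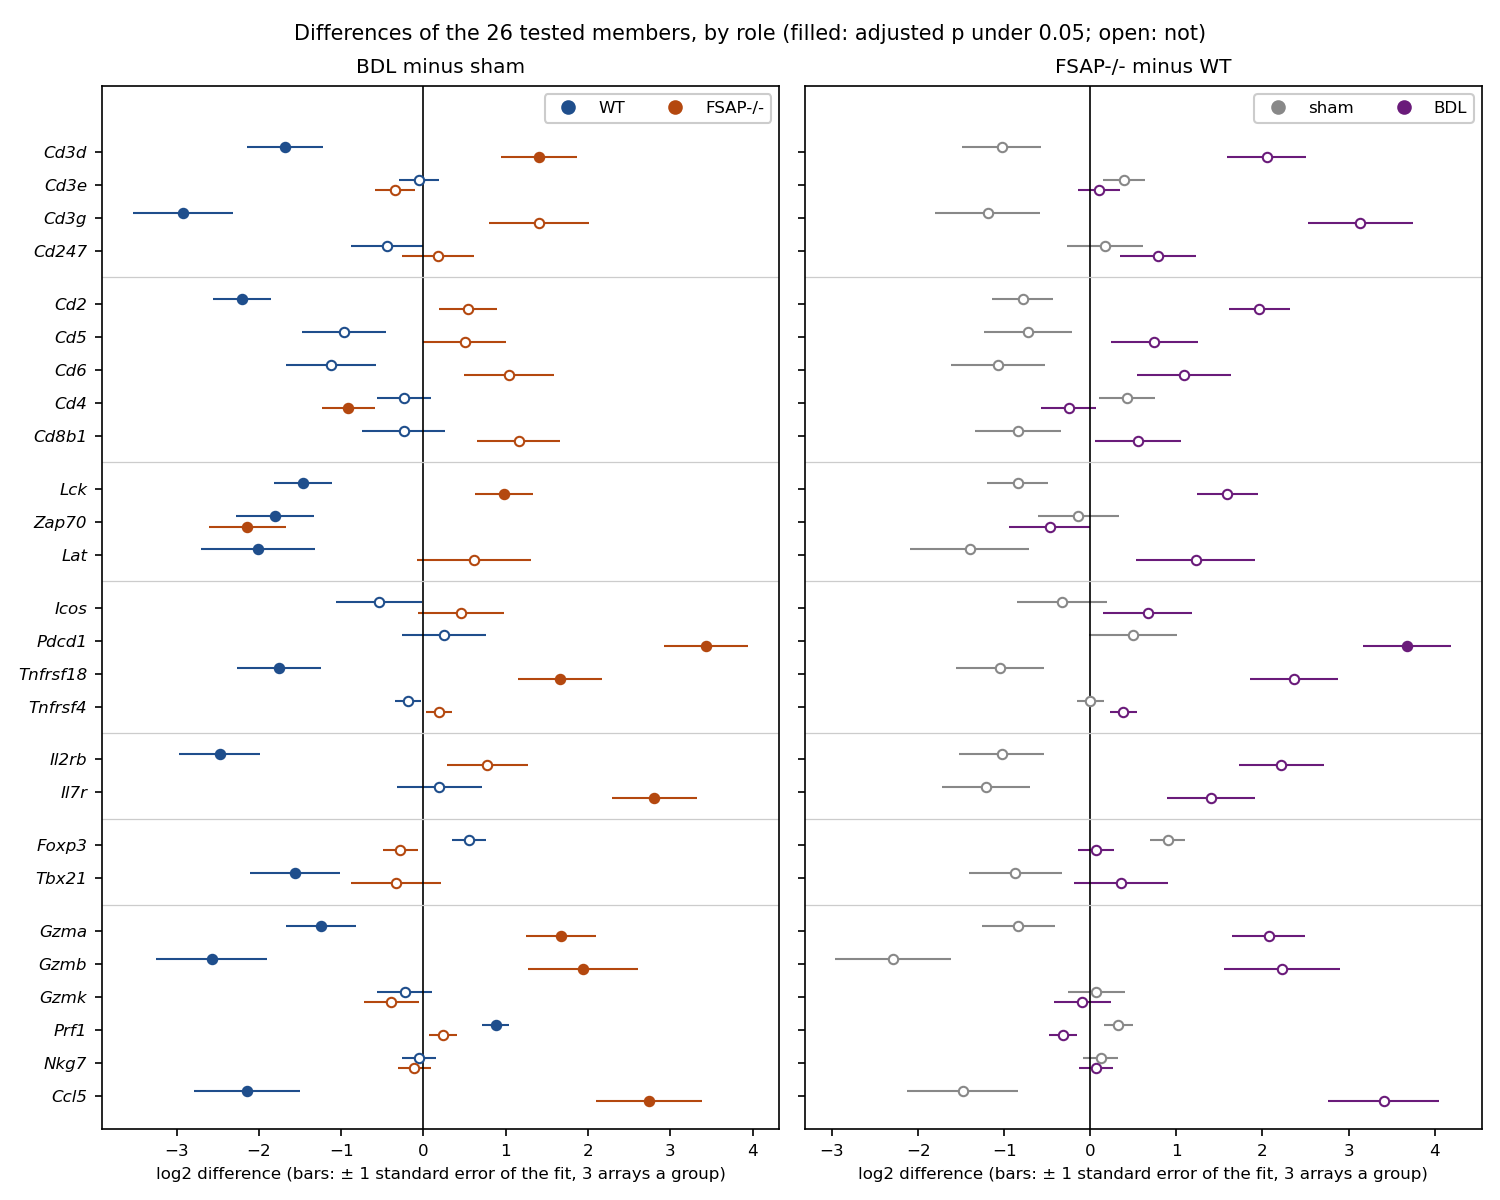
Log2 differences of the 26 tested members in role order, with bars of 1 standard error of the fit (3 arrays a group) and filled points where the adjusted p is under 0.05. In the left panel most WT points lie below 0 and most FSAP-/- points above it, with Zap70 below 0 in both. In the right panel Pdcd1 after BDL is the filled point.

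The spread within a group was not even. The median of the 26 members, set against their WT sham means, was between -0.024 and -0.013 on the WT sham arrays and between -1.18 and -0.75 on the WT BDL arrays. FSAP-/- sham array 1 stood at -1.43, whereas arrays 2 and 3 of that group stood at -0.20 and -0.30. FSAP-/- BDL array 1 stood at 0.89, whereas arrays 2 and 3 stood at -0.31 and -0.29. Of the 26 members, 22 were lowest in their group on FSAP-/- sham array 1, and 21 were highest in their group on FSAP-/- BDL array 1, where 30 of the 37 members were well above background. By group means, 18 of the 26 were lowest in WT BDL, 12 were highest in FSAP-/- BDL and 8 were highest in WT sham.

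**Figure D2:**
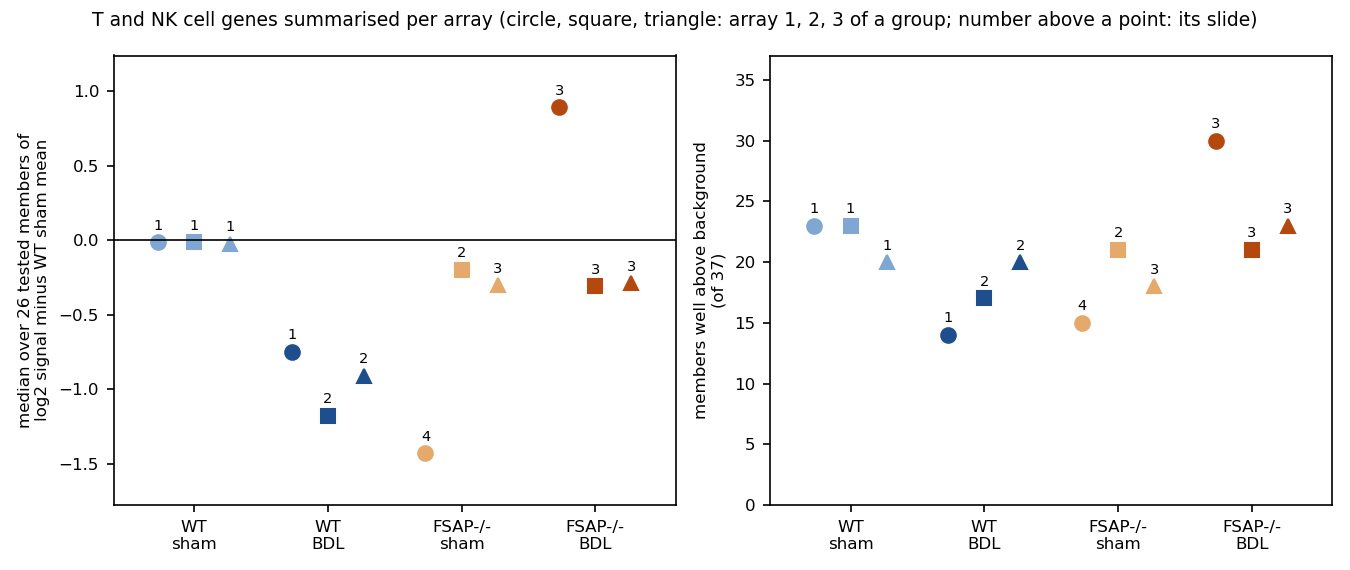
Left, the median over the 26 tested members of the log2 signal minus the WT sham mean, for each array, and right, the number of the 37 members well above background. Symbols mark arrays 1 to 3 of a group, and the number above a point is its slide. FSAP-/- sham array 1 (slide 4) is the lowest of all 12 in the left panel, and FSAP-/- BDL array 1 (slide 3) the highest.

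Of the receptor complex, 2 of the 4 CD3 chains fell in WT after BDL (17.7% of all genes) and 1 rose in FSAP-/- mice (16.2%). Cd3d and Cd3g encode the delta and gamma chains, which pair with epsilon (Cd3e). Cd247 encodes the zeta chain, which carries the most signalling motifs. Cd3d measured -2.87, -2.74 and -2.49 in WT sham, -4.31, -4.57 and -4.26 in WT BDL, -4.74, -3.07 and -3.39 in FSAP-/- sham, and -1.32, -2.82 and -2.86 in FSAP-/- BDL. The 3 WT BDL arrays lay below all WT sham arrays and the 3 FSAP-/- BDL arrays above all FSAP-/- sham arrays. Cd3d fell by 1.68 ± 0.46 (SE of the fit) in WT (adjusted p = 0.0173) and rose by 1.40 ± 0.46 in FSAP-/- (adjusted p = 0.0334). Cd3g measured -3.36, -3.76 and -2.93 in WT sham, -5.41, -7.18 and -6.22 in WT BDL, -5.41, -3.98 and -4.23 in FSAP-/- sham, and -1.80, -3.85 and -3.76 in FSAP-/- BDL. None of the WT BDL arrays was well above background for Cd3g, so the fall has only a bound. It was at least 3.46-fold lower there than in WT sham (adjusted p = 0.00425), where the bound sets the mean of the brighter group against the dimmest signal that counted as above background on each dim array, or the probe's own if higher. In FSAP-/- mice its change of 1.41 ± 0.61 did not pass (adjusted p = 0.0915).

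Cd3e gave another picture. It measured 1.13, 1.46 and 1.25 in WT sham, 1.62, 1.38 and 0.67 in WT BDL, 1.66, 1.67 and 1.68 in FSAP-/- sham, and 1.57, 1.47 and 0.94 in FSAP-/- BDL. The WT groups overlapped, whereas the FSAP-/- BDL arrays lay just below the FSAP-/- sham arrays, and FSAP-/- sham array 1 was not low. The differences did not pass, with values of -0.057 ± 0.24 in WT and -0.34 ± 0.24 in FSAP-/- (adjusted p = 0.884 and 0.295). Cd247 was well above background on 4 arrays, with changes of -0.44 ± 0.44 and 0.17 ± 0.44 that did not pass. The Cd3d fall in WT was lost without WT sham array 3 or WT BDL array 2 (adjusted p = 0.0576 and 0.0565), and its rise in FSAP-/- without FSAP-/- sham array 1 or FSAP-/- BDL array 1 (0.11 and 0.111), where the log2 change was 0.90 and 0.89. The Cd3g fall was kept in all 12 fits that each left out 1 array.

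The probes of Cd3d and of the dimmer Cd247 spot lie in the part of the message that encodes the signalling motif itself, which is why they are shown. Capitals mark a pair of tyrosine segments, found as TAT or TAC, then NNNNNN, then CTN, TTA or TTG, with 7 codons between the segments. Of 39429 probes on the array 9 hold such a pair (0.0228%), and 2 of them are among the 47 probes of the members. Positions are those of the scanner files (build mm9, + strand, exons joined): chr9:44794171-44794402 for Cd3d and chr1:167786567-167787585 for Cd247.
Cd3d probe: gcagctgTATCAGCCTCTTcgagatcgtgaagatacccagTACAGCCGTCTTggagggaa
Cd247 probe: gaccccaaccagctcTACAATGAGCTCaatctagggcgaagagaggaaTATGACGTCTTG
The Cd3d probe was well above background on all 12 arrays. The Cd247 probe was not on any, so the values given for Cd247 above come from a brighter probe elsewhere in the gene.

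Cd3d and Cd3g lie head to head on chromosome 9, with 1355 bases between their starts in the RefSeq promoter table (GRCm38.p6). The 250 bases before the start of Cd3d (chr9:44981536-44981785, + strand) are shown because both genes fell in WT, with AGGAAG, a core of ETS factor sites, in capitals on either strand.
Cd3d promoter: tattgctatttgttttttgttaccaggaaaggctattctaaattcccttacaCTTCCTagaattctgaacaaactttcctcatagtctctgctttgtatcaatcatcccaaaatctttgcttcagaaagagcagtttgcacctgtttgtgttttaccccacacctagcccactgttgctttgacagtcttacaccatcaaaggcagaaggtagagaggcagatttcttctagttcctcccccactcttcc
The motif occurs once, on the opposite strand, with its first letter 198 bases before the start.

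Among the accessory and coreceptor proteins, 1 of 5 tested fell in WT and 1 of 5 fell in FSAP-/- mice. These counts lie near the shares of all genes, of which 17.7% were lower in WT and 22.9% in FSAP-/-. Cd2 encodes an adhesion receptor of T and NK cells. It measured -2.81, -2.95 and -2.84 in WT sham, -5.13, -5.28 and -4.81 in WT BDL, -4.61, -3.03 and -3.31 in FSAP-/- sham, and -2.73, -3.43 and -3.16 in FSAP-/- BDL. The WT sham arrays lay close together, 1 of 3 WT BDL arrays was above background, and all 3 WT BDL arrays lay below every other array. Cd2 fell by 2.21 ± 0.35 in WT (adjusted p = 0.000912) and this call was kept in all 12 fits without 1 array. In FSAP-/- its change was 0.54 ± 0.35 (adjusted p = 0.247). Cd5 and Cd6, related scavenger receptors that dampen receptor signals, had changes of -0.97 ± 0.51 and -1.12 ± 0.55 in WT that did not pass (adjusted p = 0.171 and 0.141), although neither gene's WT groups overlapped. Both passed with only the WT groups in the fit (0.0205 and 0.0115) and without the arrays with Y-linked signal (0.0273 and 0.00714), and Cd5 also without FSAP-/- BDL array 1 (0.0496). Cd8b1, the beta chain of the CD8 coreceptor, was measured on 7 arrays and differed by 1.16 ± 0.50 in FSAP-/- (adjusted p = 0.0916). Its partner Cd8a measured -5.51, -5.69 and -5.90 in WT sham, -5.36, -5.07 and -5.36 in WT BDL, -5.26, -4.78 and -5.99 in FSAP-/- sham, and -4.49, -5.07 and -5.70 in FSAP-/- BDL. Only FSAP-/- BDL array 1 was well above background for Cd8a, so no level of it can be given elsewhere.

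Cd4, the coreceptor of helper and regulatory T cells, which is also made by some myeloid cells, was 1 of the 2 members that fell in FSAP-/- mice. It measured 5.29, 5.49 and 4.71 in WT sham, 5.72, 4.37 and 4.70 in WT BDL, 5.48, 5.86 and 5.42 in FSAP-/- sham, and 4.79, 4.78 and 4.46 in FSAP-/- BDL. All FSAP-/- BDL arrays lay below all FSAP-/- sham arrays, and Cd4 fell by 0.91 ± 0.32 there (adjusted p = 0.045). A second Cd4 probe, 847-fold dimmer on average, gave -0.79 ± 0.22 (adjusted p = 0.0176 in a fit of every probe on its own). The WT change was -0.24 ± 0.32 with the brighter probe. Quantile normalization ended the call of the brighter probe (adjusted p = 0.223). The Cd4 fall lay at the threshold: 9 of the 12 fits without 1 array lost it (adjusted p = 0.0508 to 0.134), all but those without WT sham array 3, WT BDL array 1 or WT BDL array 2.

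All 3 signalling genes fell in WT (17.7% of all genes), although Lat entered the tests only with the WT sham arrays. In FSAP-/- mice Lck rose (16.2%) and Zap70 fell (22.9%). Lck, the kinase that starts the signal, measured -1.22, -1.37 and -1.25 in WT sham, -2.76, -3.02 and -2.44 in WT BDL, -2.88, -1.62 and -1.86 in FSAP-/- sham, and -0.46, -1.64 and -1.34 in FSAP-/- BDL. WT BDL lay below WT sham without overlap, whereas the FSAP-/- groups overlapped at FSAP-/- sham array 2 and FSAP-/- BDL array 2. Lck fell by 1.46 ± 0.35 in WT (adjusted p = 0.00932), in all 12 fits without 1 array. The rise of 0.97 ± 0.35 in FSAP-/- (adjusted p = 0.0491) was kept only without FSAP-/- sham array 2 or FSAP-/- BDL array 2, and the other 10 fits gave adjusted p = 0.0558 to 0.17. It was 0.60 without FSAP-/- sham array 1 and 0.63 without FSAP-/- BDL array 1.

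Zap70, the kinase that docks on the phosphorylated chains, measured 3.76, 3.88 and 3.98 in WT sham, 1.93, 2.73 and 1.54 in WT BDL, 3.38, 3.86 and 3.98 in FSAP-/- sham, and 2.36, 2.10 and 0.33 in FSAP-/- BDL. Every BDL array of either genotype lay below every sham array of either genotype. Zap70 fell by 1.80 ± 0.47 in WT (adjusted p = 0.0137) and by 2.14 ± 0.47 in FSAP-/- (adjusted p = 0.00483), and it was the one member that fell in both, as did 13.5% of all genes. No member rose in both, as 10.4% of all genes did. A second probe close by on chromosome 1 gave -1.77 ± 0.45 and -2.38 ± 0.45 (adjusted p = 0.0117 and 0.00201). The WT fall was lost without WT BDL array 3 (adjusted p = 0.053), and the FSAP-/- fall was kept in all 12 such fits.

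Lat was well above background on 5 arrays, of which 3 were WT sham. It entered the tests only with the WT sham arrays, the group in which it was high, and its call is no support beyond these values. It measured -4.22, -2.98 and -4.46 in WT sham, -5.62, -5.79 and -6.29 in WT BDL, -6.36, -4.50 and -5.00 in FSAP-/- sham, and -3.04, -5.72 and -5.25 in FSAP-/- BDL. The fall in WT was at least 2.38-fold (adjusted p = 0.0455), and FSAP-/- differed by 0.62 ± 0.69 (adjusted p = 0.515). The fall was kept only without FSAP-/- sham array 1 or 2 or FSAP-/- BDL array 1 or 2, and the other 8 fits gave adjusted p = 0.0503 to 0.159.

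The Lat probe (chr7:133507719-133507778, - strand, mm9) is shown because it holds 1 such tyrosine segment, marked in capitals, where the Cd3d probe and the dimmer Cd247 probe hold a pair.
Lat probe: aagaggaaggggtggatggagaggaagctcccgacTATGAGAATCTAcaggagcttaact
The sequence is that of the message, 5′ to 3′.

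**Figure D3:**
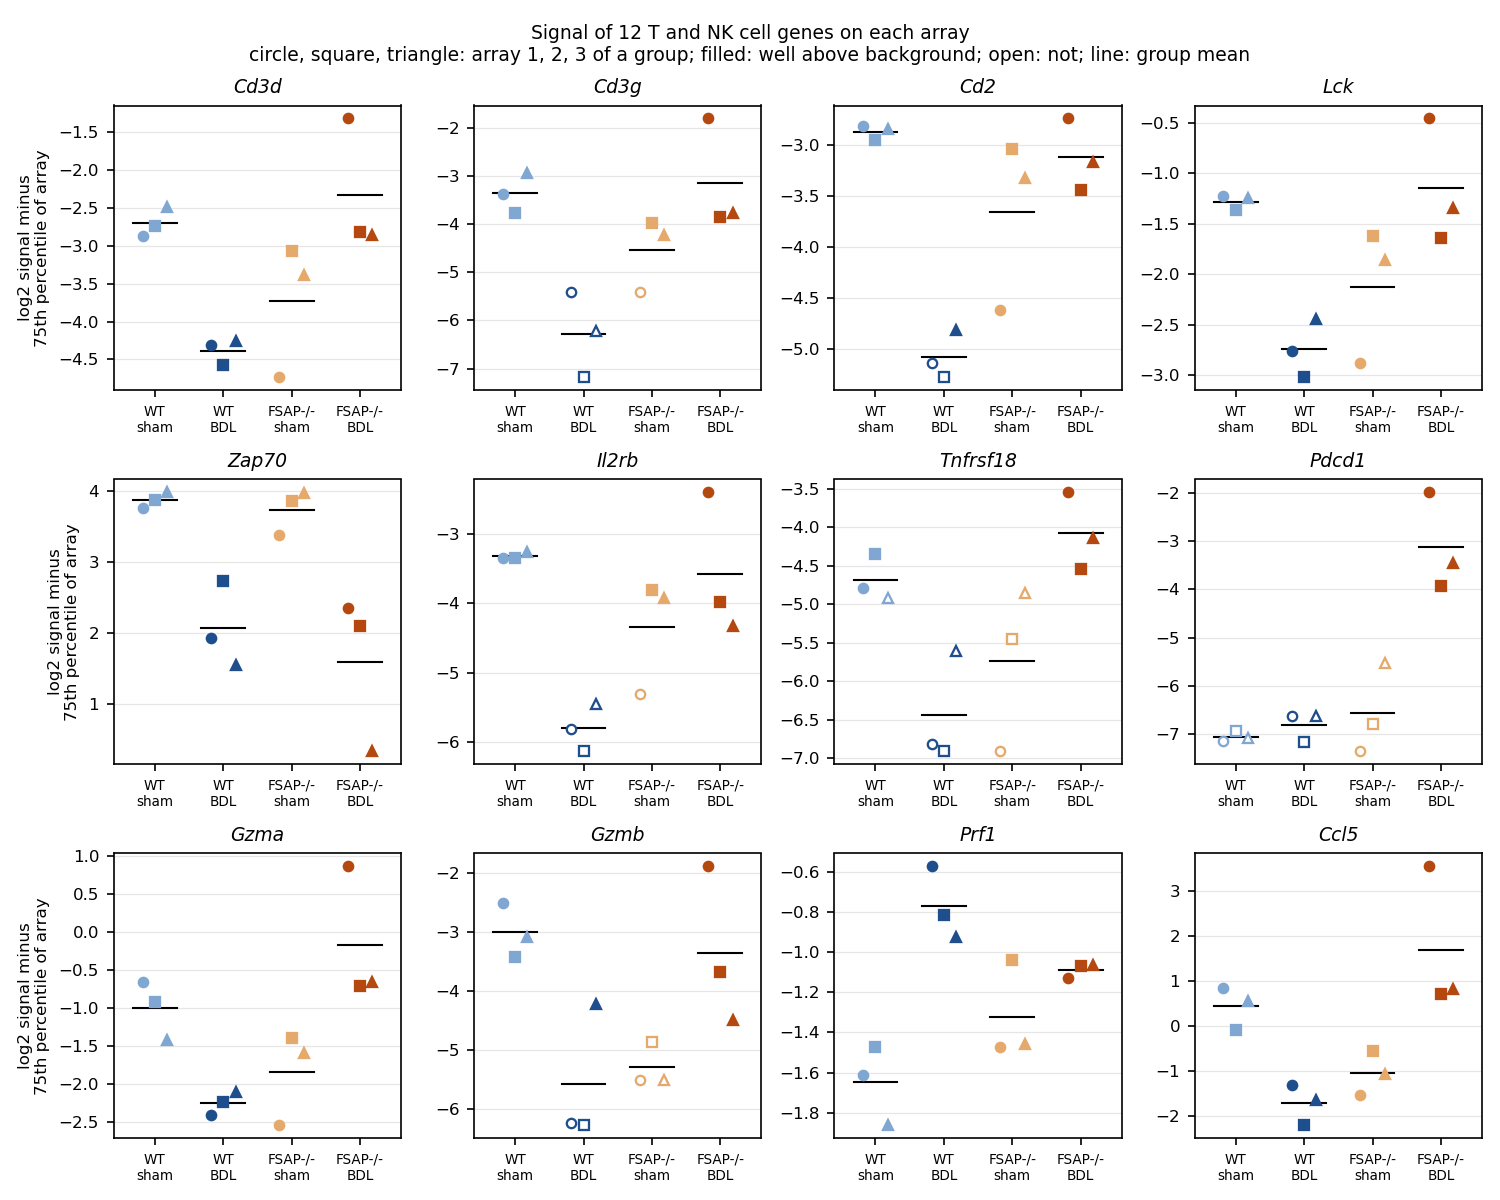
Log2 signal minus the 75th percentile of the array for 12 members on each array, with group means as lines. Symbols mark arrays 1 to 3 of a group, and open symbols are arrays on which the probe was not well above background. FSAP-/- BDL array 1 is the top point for Cd3d, Cd3g, Gzma, Gzmb, Ccl5 and Pdcd1, and all 9 arrays other than FSAP-/- BDL are open for Pdcd1.

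Of the costimulatory and checkpoint receptors, 1 of 4 tested fell in WT (17.7% of all genes) and 2 of 4 rose in FSAP-/- mice (16.2%). Pdcd1, which encodes the checkpoint receptor PD-1, measured -7.15, -6.94 and -7.08 in WT sham, -6.63, -7.16 and -6.63 in WT BDL, -7.36, -6.80 and -5.53 in FSAP-/- sham, and -1.99, -3.94 and -3.45 in FSAP-/- BDL. It was well above background on all 3 FSAP-/- BDL arrays and on no other array, so it entered the tests only through the group in which it was high, and its calls are no support beyond these values. After BDL it was at least 3.53-fold higher than in FSAP-/- sham (adjusted p = 0.0005), a call kept in all 12 fits without 1 array. It was also at least 4.04-fold higher in FSAP-/- BDL than in WT BDL (adjusted p = 0.0362). This was the one member called between the genotypes, beside 42 of all genes (0.215%, of which 0.123% were higher and 0.0923% lower). The genotype call was lost without any 1 of the WT sham arrays, WT BDL array 1, FSAP-/- sham array 2, FSAP-/- BDL array 1 or FSAP-/- BDL array 3 (adjusted p = 0.0511 to 0.126). With no filter on dim genes the genotype call was lost (adjusted p = 0.0675). With normexp background correction neither Pdcd1 call passed (adjusted p = 0.0756 for the rise and 0.1 between the genotypes).

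Tnfrsf18 encodes GITR, a costimulatory receptor carried at high level by regulatory T cells. It measured -4.79, -4.35 and -4.92 in WT sham, -6.82, -6.91 and -5.61 in WT BDL, -6.91, -5.45 and -4.85 in FSAP-/- sham, and -3.55, -4.55 and -4.14 in FSAP-/- BDL. The groups did not overlap in either genotype. In WT it fell, at least 1.37-fold (adjusted p = 0.0221), with 2 of 3 WT sham arrays above background. In FSAP-/- mice it rose at least 1.82-fold (adjusted p = 0.0249), with all 3 BDL arrays and no sham array above background. Tnfrsf18 entered the tests only with the FSAP-/- BDL arrays, so the call of this rise is no support beyond these values. Leaving out WT sham array 1 or 2 or WT BDL array 1 or 2 ended the first call (adjusted p = 0.0515 to 0.0802), and leaving out FSAP-/- sham array 1 or FSAP-/- BDL array 1 or 3 ended the second (0.0558 to 0.0842), which was at least 1.54-fold without FSAP-/- sham array 1. Normexp background correction ended both (0.0653 and 0.63). Icos, a costimulatory receptor of activated T cells, differed by -0.54 ± 0.52 and 0.45 ± 0.52. Tnfrsf4, which encodes OX40, differed by -0.19 ± 0.16 and 0.19 ± 0.16. Neither passed in either genotype, and Ctla4, the checkpoint receptor of regulatory and activated T cells, did not exceed background on any of the 12.

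The 250 bases before the start of Pdcd1 (chr1:94052554-94052803, - strand, GRCm38.p6) are shown because Pdcd1 was the one member that differed between the genotypes after BDL, with AGGAAG in capitals.
Pdcd1 promoter: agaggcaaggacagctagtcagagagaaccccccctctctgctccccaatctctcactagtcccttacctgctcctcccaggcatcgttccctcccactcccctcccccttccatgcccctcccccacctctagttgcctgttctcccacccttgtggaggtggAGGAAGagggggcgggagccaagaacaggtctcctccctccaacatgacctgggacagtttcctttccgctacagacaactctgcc
The motif occurs once, with its first letter 86 bases before the start.

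Of the cytokine receptor chains, Il2rb fell in WT and Il7r rose in FSAP-/- mice, and Il2ra was not measurable. Il2rb encodes the chain shared by the receptors for interleukins 2 and 15, on which NK cells and memory T cells depend. It measured -3.35, -3.35 and -3.26 in WT sham, -5.81, -6.13 and -5.45 in WT BDL, -5.30, -3.82 and -3.93 in FSAP-/- sham, and -2.41, -3.99 and -4.33 in FSAP-/- BDL. The 3 WT sham arrays lay close together and no WT BDL array was above background. Il2rb was at least 3.46-fold lower in WT BDL (adjusted p = 0.00328), in all 12 fits without 1 array, and differed by 0.77 ± 0.49 in FSAP-/- (adjusted p = 0.243). Il7r, the receptor for interleukin 7, which keeps naive and memory T cells alive, measured -5.49, -5.91 and -5.48 in WT sham, -6.54, -5.31 and -4.45 in WT BDL, -7.09, -6.72 and -6.69 in FSAP-/- sham, and -3.99, -4.96 and -3.14 in FSAP-/- BDL. All FSAP-/- BDL arrays lay above all FSAP-/- sham arrays, and 2 of them were above background. Il7r was at least 1.89-fold higher after BDL in FSAP-/- (adjusted p = 0.00174), also in all 12 such fits but not with normexp background correction (adjusted p = 0.117). In WT 1 array was above background for Il7r, so no fold is given (adjusted p = 0.806). All 3 arrays above background for Il7r were BDL arrays. It entered the tests only through them, and its call is no support beyond these values.

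The transcription factors were mostly near background. Foxp3, the factor of regulatory T cells, measured -4.88, -5.60 and -5.58 in WT sham, -4.74, -4.92 and -4.73 in WT BDL, -4.49, -4.22 and -4.64 in FSAP-/- sham, and -4.68, -4.93 and -4.59 in FSAP-/- BDL. It was above background on 7 arrays, and its highest group mean was in FSAP-/- sham. Its changes of 0.55 ± 0.21 in WT and -0.28 ± 0.21 in FSAP-/- did not pass (adjusted p = 0.064 and 0.316). Without WT sham array 1, the one WT sham array above background, the fit called Foxp3 in WT (adjusted p = 0.0113), but the measured rise was then only a bound of at least 1.095-fold. Tbx21 encodes T-bet, the factor of type 1 T cells and NK cells. It measured -4.39, -3.86 and -4.11 in WT sham, -4.75, -6.23 and -6.06 in WT BDL, -6.37, -4.35 and -4.26 in FSAP-/- sham, and -5.29, -4.98 and -5.69 in FSAP-/- BDL. No WT BDL array was above background, and Tbx21 fell at least 2.02-fold in WT (adjusted p = 0.0478). The arrays above background were the 3 of WT sham and FSAP-/- sham array 3. Tbx21 thus entered the tests only with the WT sham arrays, the group in which it was high, and its call is no support beyond these values. In FSAP-/- it was at least 1.09-fold lower after BDL and did not pass (adjusted p = 0.662). The fall was lost in 8 of 12 fits without 1 array (adjusted p = 0.0549 to 0.151) and kept without WT BDL array 1 or any 1 of the FSAP-/- sham arrays. Eomes, a relative of Tbx21, was above background with its brighter probe on FSAP-/- BDL array 1 alone, and Gata3, the factor of type 2 T cells, on that array and on WT BDL array 2.

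Among the cytotoxic and secreted effectors, 3 of 6 tested fell in WT (17.7% of all genes) and 1 rose (15.2%), and 3 rose in FSAP-/- mice (16.2%). Gzma and Gzmb encode granzymes A and B, proteases that perforin delivers into target cells. Gzma measured -0.66, -0.92 and -1.42 in WT sham, -2.40, -2.24 and -2.10 in WT BDL, -2.54, -1.39 and -1.58 in FSAP-/- sham, and 0.86, -0.71 and -0.66 in FSAP-/- BDL. It fell by 1.24 ± 0.42 in WT (adjusted p = 0.0441) and rose by 1.67 ± 0.42 in FSAP-/- (adjusted p = 0.0101), with no overlap in either genotype. The WT fall was lost without WT sham array 1 or 2, without any 1 of the WT BDL arrays, or without FSAP-/- sham array 3 (adjusted p = 0.055 to 0.137), whereas the rise was kept in all 12 fits. Gzmb measured -2.50, -3.43 and -3.07 in WT sham, -6.23, -6.28 and -4.21 in WT BDL, -5.51, -4.86 and -5.50 in FSAP-/- sham, and -1.88, -3.68 and -4.49 in FSAP-/- BDL. It fell by 2.57 ± 0.67 in WT (adjusted p = 0.0136), where 1 of 3 BDL arrays was above background, and rose at least 3.02-fold in FSAP-/- (adjusted p = 0.0413), where no sham array was. The Gzmb fall was lost without WT sham array 1 or WT BDL array 2 (adjusted p = 0.0517 and 0.0545). The Gzmb rise was kept only without any 1 of the WT BDL arrays or without FSAP-/- BDL array 3, and the other 8 fits gave adjusted p = 0.0515 to 0.141. Without FSAP-/- BDL array 1 it was at least 1.81-fold.

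Ccl5 encodes the chemokine RANTES, released by activated T and NK cells and by other cells. It measured 0.84, -0.086 and 0.56 in WT sham, -1.30, -2.20 and -1.63 in WT BDL, -1.52, -0.56 and -1.06 in FSAP-/- sham, and 3.54, 0.72 and 0.83 in FSAP-/- BDL. The FSAP-/- BDL arrays lay above all FSAP-/- sham arrays and the WT BDL arrays below all WT sham arrays. Ccl5 fell by 2.15 ± 0.64 in WT (adjusted p = 0.0255) and rose by 2.74 ± 0.64 in FSAP-/- (adjusted p = 0.00668). The rise was kept in all 12 fits without 1 array, and was 1.82 without FSAP-/- BDL array 1. The fall was lost without WT sham array 1 or 3 or WT BDL array 2 or 3 (adjusted p = 0.0573 to 0.0864).

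Prf1, which encodes the pore former perforin, did not follow the granzymes. It measured -1.61, -1.47 and -1.86 in WT sham, -0.57, -0.81 and -0.92 in WT BDL, -1.47, -1.04 and -1.46 in FSAP-/- sham, and -1.13, -1.07 and -1.06 in FSAP-/- BDL. All WT BDL arrays lay above all WT sham arrays, and Prf1 rose by 0.88 ± 0.17 in WT (adjusted p = 0.00253), in all 12 fits without 1 array. In FSAP-/- it differed by 0.24 ± 0.17 (adjusted p = 0.291). Gzmk, granzyme K, differed by -0.23 ± 0.33 in WT and -0.39 ± 0.33 in FSAP-/-, neither of which passed. Without FSAP-/- sham array 1 the FSAP-/- value of Gzmk was -0.88 and passed (adjusted p = 0.00352). Ifng, the main cytokine of type 1 responses, was above background on FSAP-/- BDL array 1 alone, and Xcl1, a chemokine of T and NK cells, on WT sham array 2 alone.

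Nkg7, a protein of cytotoxic granules, was read differently by its probes. The brighter probe measured 0.95, 1.08 and 0.90 in WT sham, 1.20, 0.89 and 0.68 in WT BDL, 1.02, 1.25 and 1.02 in FSAP-/- sham, and 1.42, 0.85 and 0.69 in FSAP-/- BDL. Its changes were -0.054 ± 0.20 in WT and -0.11 ± 0.20 in FSAP-/- (adjusted p = 0.867 and 0.702). The other probe was 29.6-fold dimmer on average and measured -2.97, -3.42 and -3.23 in WT sham, -5.55, -5.22 and -5.76 in WT BDL, -6.37, -3.58 and -3.83 in FSAP-/- sham, and -0.69, -2.94 and -3.12 in FSAP-/- BDL. Tested on its own, it fell by 2.31 ± 0.74 in WT and rose by 2.34 ± 0.74 in FSAP-/- (adjusted p = 0.0352 and 0.029). The dimmer probe thus gave the pattern of Gzma, Gzmb and Ccl5 and the brighter one passed in neither genotype, so the result for Nkg7 depends on the probe. The values of the dimmer probe rest on 9 arrays above background, including 3 of WT sham and 3 of FSAP-/- BDL.

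**Figure D4:**
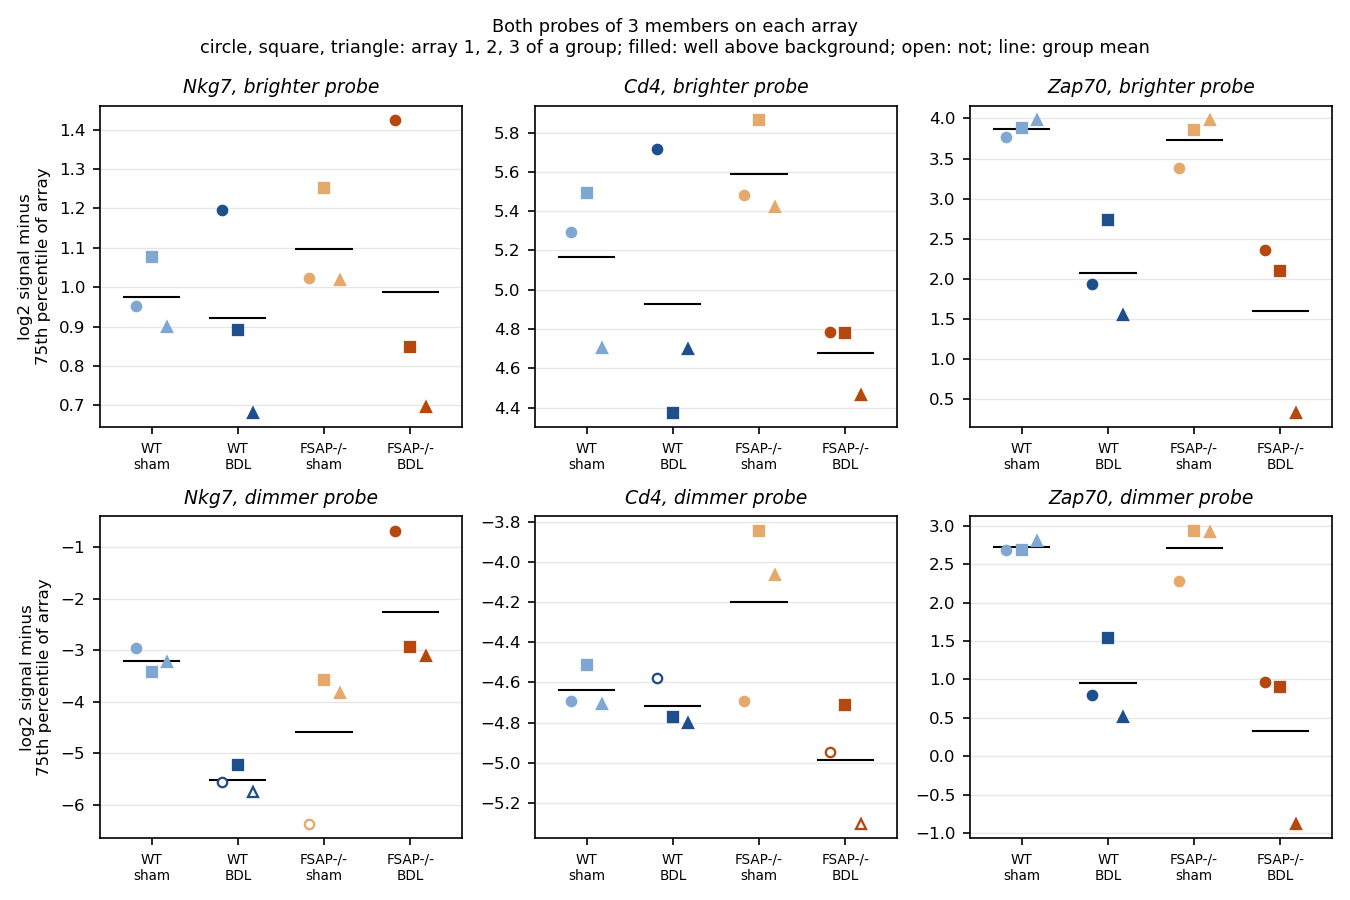
Both probes of Nkg7, Cd4 and Zap70 on each array, in log2 signal minus the 75th percentile of the array, with group means as lines and open symbols where the probe was not well above background. The Nkg7 panels differ in pattern, while both Zap70 probes are lower after BDL in either genotype and both Cd4 probes are lower in FSAP-/- BDL than in FSAP-/- sham.

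Of 10 members with a pair of probes, Cd6 was another on which they differed: its dimmer probe fell by 0.88 ± 0.30 in FSAP-/- (adjusted p = 0.0391), where the brighter one differed by 1.04 ± 0.55. Of the 47 probes of the members 9 hold AATAAA, the signal for cutting and polyadenylating a message, which 12.6% of all probes hold.

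The start regions of the cytotoxic genes are shown because Gzma and Gzmb fell in WT and rose in FSAP-/- mice while Prf1 did not. Each is the 250 bases before the RefSeq start (GRCm38.p6): chr13:113100982-113101231 (- strand), chr14:56262335-56262584 (- strand) and chr10:61297586-61297835 (+ strand). Capitals mark TGTGGT, a core of RUNX factor sites, AGGAAG, and TGANTCA, a core of AP-1 sites, each searched on both strands.
Gzma promoter: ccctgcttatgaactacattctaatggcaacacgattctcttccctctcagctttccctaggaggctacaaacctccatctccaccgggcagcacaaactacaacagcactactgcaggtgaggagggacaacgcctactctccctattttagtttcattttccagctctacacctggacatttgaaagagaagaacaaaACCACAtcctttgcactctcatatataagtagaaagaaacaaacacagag
Gzmb promoter: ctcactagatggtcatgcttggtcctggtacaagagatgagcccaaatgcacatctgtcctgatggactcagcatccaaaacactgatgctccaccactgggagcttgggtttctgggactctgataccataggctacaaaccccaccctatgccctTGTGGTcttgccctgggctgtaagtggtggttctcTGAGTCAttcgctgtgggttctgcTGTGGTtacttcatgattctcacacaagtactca
Prf1 promoter: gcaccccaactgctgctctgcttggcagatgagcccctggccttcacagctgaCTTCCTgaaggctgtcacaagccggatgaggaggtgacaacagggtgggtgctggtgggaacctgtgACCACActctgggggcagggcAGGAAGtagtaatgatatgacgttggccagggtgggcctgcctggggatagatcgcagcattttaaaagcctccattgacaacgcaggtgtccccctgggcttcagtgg
TGTGGT occurs once in Gzma, on the opposite strand, 2 times in Gzmb and once in Prf1. TGANTCA occurs in Gzmb alone, and AGGAAG in Prf1 alone, 2 times. The table holds 29 of the 37 members, with 34 start regions. TGTGGT lies in 32.4% of these regions and in 14% of all 32851 regions of the same length. AGGAAG lies in 55.9% of the members' regions and in 29.5% of all. TGANTCA lies in 2.94% of the members' regions and in 6.75% of all. None of these motifs overlapped in the sequences printed.

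The NK cell receptors gave no test. Klrb1c (NK1.1), Klrk1 (NKG2D) and Ncr1 (NKp46) were not well above background on any of the 12 arrays, and Klrd1 (CD94) was above it on FSAP-/- BDL array 1 alone. Klrd1 measured -7.12, -5.63 and -7.09 in WT sham, -5.01, -6.39 and -6.02 in WT BDL, -7.58, -5.56 and -6.76 in FSAP-/- sham, and -4.82, -5.68 and -5.10 in FSAP-/- BDL. Values on arrays not above background have no order.

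The role groups are set side by side against the shares of all genes (17.7% lower and 15.2% higher in WT, 16.2% higher and 22.9% lower in FSAP-/-). In the receptor complex 2 of 4 fell in WT and 1 rose in FSAP-/-, with median changes of -1.06 and 0.79. Of the cytotoxic and secreted effectors 3 of 6 fell and 1 rose in WT, and 3 rose in FSAP-/-, with medians of -0.73 and 0.95 (0.92 with bounds). Of the 6 regulatory genes (Foxp3, Il2ra, Ctla4, Icos, Tnfrsf18 and Tnfrsf4) 4 could be tested. Only Tnfrsf18, which entered the tests only with the FSAP-/- BDL arrays, passed among them, down in WT and up in FSAP-/-. The medians of the regulatory genes were -0.37 (-0.32 with bounds) and 0.32. Of the costimulatory and checkpoint receptors, which share 3 tested genes with the regulatory ones, the medians were -0.37 (-0.32 with bounds) and 1.06 (0.66 with bounds). The medians of all genes were -0.034 and -0.16. Whether the groups differ from each other was not tested, and each is small.

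In all, 6 members fell in WT and rose in FSAP-/-: Cd3d, Lck, Tnfrsf18, Gzma, Gzmb and Ccl5. Across the array 17 genes did so (0.0872% of those tested), and these 6 are among them. Of the 6, Tnfrsf18 entered the tests only with the FSAP-/- BDL arrays. The interaction estimates of the 6 lay between 2.43 (Lck) and 4.89 (Ccl5), with adjusted p from 0.111 to 0.118, so that the difference between the genotypes in response to BDL did not pass for any. The smallest adjusted interaction p among the 26 was 0.11 for Cd2.

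The genotypes were then compared within each kind of surgery. In sham mice none of the 26 members passed in either direction, beside 3 of all genes (0.0154%, of which 0.00513% were higher and 0.0103% lower). An unadjusted p under 0.05 was found for 7 members, beside 1538 of all 19495 genes. The median difference of the 26, FSAP-/- minus WT, was -0.81, beside 0.036 over all genes. Against the WT sham means the members' median was -1.43 on FSAP-/- sham array 1, and -0.20 and -0.30 on arrays 2 and 3. On array 1, 22 of the 26 were lowest in their group. For 13 of the 26 the groups did not overlap, beside 17% of all genes. The largest of these differences was Gzmb, at least 3.85-fold lower in FSAP-/- sham (adjusted p = 0.324). After BDL 1 member passed, Pdcd1, and 12 had an unadjusted p under 0.05, as had 2517 of all genes. The median was 0.94, beside -0.028 over all genes, and for 11 of 26 the groups did not overlap, beside 15.6% of all genes. Ccl5 differed by 3.41 ± 0.64 (adjusted p = 0.067), Cd2 by 1.96 ± 0.35 (0.0542) and Gzma by 2.08 ± 0.42 (0.0836), with no overlap between the groups. Without FSAP-/- sham array 1, 5 members passed after BDL, beside 90 of all genes: Cd3d (2.05), Cd2 (1.96), Lck (1.59), Tnfrsf18 (at least 2.09-fold) and Pdcd1.

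The arrays lay on 4 slides. WT sham arrays and WT BDL array 1 were on slide 1, WT BDL arrays 2 and 3 and FSAP-/- sham array 2 on slide 2, FSAP-/- sham array 3 and the FSAP-/- BDL arrays on slide 3, and FSAP-/- sham array 1 on slide 4. With slide as a block in the fit, 4 of the 13 WT calls were kept (Cd2, Tnfrsf18, Il2rb and Prf1). Of the 10 FSAP-/- calls 2 were kept, Pdcd1 and Il7r, which entered the tests only through BDL arrays. The adjusted p of the others lay between 0.0556 and 0.344, and the Pdcd1 difference between the genotypes had 0.743. Within slide 1, where 1 WT BDL array stands beside the 3 WT sham arrays, 22 of the 26 members differed in the same direction as over all arrays. Cd3d differed there by -1.61 and Ccl5 by -1.73, and Il2rb was at least 2.34-fold and Gzmb at least 2.93-fold lower. Within slide 3, where 1 FSAP-/- sham array stands beside the 3 FSAP-/- BDL arrays, 24 of 26 kept the direction. Cd3d differed there by 1.06 and Ccl5 by 2.76, and Pdcd1 was at least 2.78-fold and Gzmb at least 2.38-fold higher. These values reuse arrays of the full fit, so the same direction is partly built in and is no separate support. The share of all genes that kept their direction was not computed. With the slide block, the fit also called Gzmk (-0.90) and Tbx21 lower in FSAP-/- BDL (adjusted p = 0.0235 and 0.047), where no array was above background for Tbx21.

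Without the 3 arrays with Y-linked signal, which leaves 2 FSAP-/- sham arrays and 1 FSAP-/- BDL array that is assumed to vary like the other groups, the WT calls remained and 4 of the 10 FSAP-/- calls did: Zap70, Pdcd1, Il7r and Ccl5. Cd3d then differed by 0.37 in FSAP-/- (adjusted p = 0.263), Lck by 0.40 (0.252) and Gzma by 0.83 (0.0738), and Gzmb was at least 1.16-fold higher (0.55), while Ccl5 differed by 1.64 (0.0323). In that fit the interaction passed for 6 members, as for 1.37% of all genes: Cd3d (2.05), Cd2 (2.22), Lck (1.86), Gzma (2.07), Ccl5 (3.79) and Il2rb, which was not above background on any WT BDL array, with adjusted p from 0.0414 to 0.0496. In each of the 5 with a value the estimate is smaller than with all arrays, and its direction, higher in FSAP-/-, is the same.

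Genes of the same cells that are not members were read from a second list of 66, of which 60 were on the array and 40 were tested. In WT 6 rose and 10 fell, where 15.2% of all genes were higher and 17.7% lower. In FSAP-/- 15 rose and 3 fell, where 16.2% were higher and 22.9% lower. The median change of the 40 in WT was -0.054, beside -0.034 over all genes, with 22 below 0 and 18 above. In FSAP-/- it was 0.37, beside -0.16, with 31 above 0 and 9 below. Havcr2, the checkpoint receptor TIM-3, which macrophages also carry, rose at least 2.61-fold in WT and at least 5.63-fold in FSAP-/- (adjusted p = 0.000562 and 0.000164), with no sham array above background. In WT Cxcr6, a chemokine receptor of liver T and NK cells, fell by 2.53 ± 0.58, Skap1, an adaptor of T cell adhesion, by 2.27 ± 0.33, and Gimap3, a GTPase of lymphocytes, by 2.22 ± 0.56. In FSAP-/- Cd52, a surface glycoprotein of lymphocytes, rose by 2.81 ± 0.43. Themis, a T cell signalling protein, rose in both, at least 1.34-fold in WT (adjusted p = 0.036) and at least 2.25-fold in FSAP-/-. Themis and Havcr2 entered the tests only through BDL arrays, and their calls are no support beyond these values. The other adjusted p of Cxcr6, Skap1, Gimap3, Cd52 and Themis lay between 0.000562 and 0.0119.

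Ligands and partners of the members' receptors formed a further list of 36, of which 34 were on the array and 20 were tested. In WT 6 rose and 4 fell, and in FSAP-/- 8 rose and 3 fell, to be read against the same shares. Cxcl9, a chemokine that draws activated T cells, fell by 3.15 ± 0.82 in WT (adjusted p = 0.0132) and read 0.47, 0.65 and 0.26 in WT sham, -2.11, -3.04 and -2.91 in WT BDL, -1.77, -0.19 and -0.17 in FSAP-/- sham, and 2.72, -1.16 and -0.27 in FSAP-/- BDL. Its FSAP-/- change was 1.14 ± 0.82 (adjusted p = 0.299). Il15, a ligand of the Il2rb chain, fell by 1.70 ± 0.47 in WT, and differed by -0.42 ± 0.47 in FSAP-/- (adjusted p = 0.52). Cxcl10, a relative of Cxcl9, rose by 2.20 ± 0.63 in FSAP-/- (adjusted p = 0.0192), and Il2rg, the common chain that pairs with IL2RB, by 1.65 ± 0.45. The other 5 named moved the same way in both genotypes. In WT and FSAP-/-, Icosl, the ligand of ICOS, rose by 2.58 ± 0.51 and 3.32 ± 0.51, Cxcl16, the ligand of CXCR6, by 0.94 ± 0.16 and 1.74 ± 0.16, and Cd48, a ligand of CD2, by 0.61 ± 0.18 and 1.76 ± 0.18. Alcam, the ligand of CD6, rose by 1.40 ± 0.13 and 1.35 ± 0.13, and Clec2d, a ligand of an NK cell receptor, fell by 1.47 ± 0.39 and 1.29 ± 0.39.

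Markers of other cells moved as well. Of the pan-leukocyte genes (Ptprc, Coro1a, Laptm5, Cd53, Cd37, Rac2 and Arhgdib) 4 of 7 rose in WT and 7 of 7 in FSAP-/-, and none fell. Their summed level, in units of the array's upper quartile, was 4.61 to 4.82 in WT sham, 7.89 to 9.90 in WT BDL, 2.28 to 4.31 in FSAP-/- sham and 12 to 14.8 in FSAP-/- BDL. Macrophage markers rose by the test in 9 of 11 cases in WT and 10 of 11 in FSAP-/-, from 35.6 to 51.9 up to 83.7 to 90.7 in WT and from 28.8 to 43.7 up to 100.2 to 117 in FSAP-/-. Of 8 B cell markers 3 were tested and 3 were not well above background on any array. All 3 tested fell in WT and 1 in FSAP-/-, and their list's sum went from 1.27 to 1.33 down to 0.64 to 0.78 in WT. In WT liver 12 of the 26 tested members thus fell (17.7% of all genes were lower) where 4 of 7 pan-leukocyte genes rose (15.2% were higher). The second list of T and NK cell genes had a WT median near that of all genes (-0.054 beside -0.034). All these counts of markers are to be read against the same shares of all genes. The part of these cell types in the results on T and NK cell genes was not tested.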

How the data were processed

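Total liver RNA from 12 mice, 3 in each of 4 groups, was measured on 1-colour arrays, 100 ng per mouse with an RNA integrity of at least 7.2. The deposited scanner files hold processed signal intensity from Agilent Feature Extraction 10.5.1.1 (protocol GE1_105_Jan09), background-corrected per the file headers, with probe positions in mm9. The deposited value table of the authors holds log2 values with equal column distributions, its method not given in the sources used here, and served as an alternative.

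The log2 of the processed signal minus the 75th percentile of the array was averaged over spots of a probe, and the brightest probe of each gene was used. Genes well above background on at least 3 arrays (19495) entered limma 3.58.1 in R 4.3.3 with 4 group means, which share 1 estimate of spread (8 residual and 2.689 prior degrees of freedom). p-values were adjusted by Benjamini-Hochberg over all genes, and 0.05 was the threshold. The fit was tested on simulated data. Where no array of the dimmer group was above background, an at-least fold is given. Control spots and outlier spots were left out. One array has no gene names and was joined by probe name. The number of arrays limits the precision, and where mice are not stated to come from separate litters p-values measure the spread between these samples.

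All members are described by role. Values per array are given for members that passed in any comparison and for 6 set genes, and from each further list at most the 5 largest changes that passed are named, some of which are not reported here. The members and lists were chosen with earlier results of these data known. Genes were grouped by the gene names of the scanner files, which matched the RefSeq symbol of the accession for 46 of 47 member probes. Alternatives changed the scaling, background correction, filter, probe rule, slide, replicate block and the arrays used. Probes tested on their own and the fit without arrays with Y-linked signal were chosen after seeing the data. Replicate numbers did not pair the mice: deviations of same-numbered arrays correlated between -0.201 and 0.19.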

Additional observations from a re-analysis of the deposited data

How the results depend on the processing

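No gene-level change that passed, with all arrays or under an alternative fit, had the opposite direction in the other. Probes tested on their own did turn in FSAP-/-. The dimmer Cd6 probe passed at -0.88 beside 1.04 for the brighter one, and the dimmer Nkg7 probe at 2.34 beside -0.11. Changes that did not pass could turn, as for 4 members in WT and 2 in FSAP-/- within a slide. The counts below stand beside those of all 19495 genes tested. In the main fit 6413 genes were called in WT and 7622 in FSAP-/-, and with slide as a fixed block 3294 and 4149. With that block 4 of 26 members were called in each genotype, no larger a share than of all genes. Only the groups compared gave 7089 and 5570 genes, quantile normalization 6405 and 7653, and normexp 5325 and 6832. After BDL in WT the count of 13 members became 4 with slide as a fixed block, 15 with only the groups compared or without the arrays with Y-linked signal, and 6 to 13 in the fits that each left out 1 array. In FSAP-/- the count of 10 became 6 with quantile normalization, 5 with normexp background correction, 4 with slide as a fixed block, 6 with only the groups compared, 5 without the arrays with Y-linked signal, and 5 to 9 with 1 array left out. Of these 4 and 5, 2 and 4 were among the 10, and Gzmk was called in both and Tbx21 with the slide block. Between the genotypes after BDL 42 of all genes were called in the main fit. With no filter on dim genes 6 of 31791 were called, with slide as a fixed or random block 2 and 6, and with only the groups compared 3. The member count of 1 became 2 with the array median, quantile normalization or the authors' log2 values, beside 63, 67 and 62 of all genes. It became 0 with no filter on dim genes, slide as a fixed or random block, only the groups compared or without the arrays with Y-linked signal, and lay between 0 and 5 with 1 array left out. The interaction count of 0 became 6 without the arrays with Y-linked signal, and the sham count stayed 0. The cause was not tested. With the replicate block, whose numbers do not pair the mice, 10, 7, 0, 0 and 0 members passed in the 5 comparisons, beside 6150, 7338, 3, 11 and 0 of all genes. With it Pdcd1 lost the call between the genotypes (0.0729). Array median scaling moved the median of all genes by -0.154 in WT, -0.202 in FSAP-/- and -0.104 between the genotypes after BDL. Signal over background limits 11 members that could not be tested and the changes given as a bound.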

Other observations

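Probes for the T cell receptor loci, chosen after their values were seen, carried little signal. Those for Tcrg-C, Tcrb-J, Tcra-V8 and Tcrg-V2 were not well above background on any array. Tcrg-V1, a variable segment of the gamma chain, was above it on 9 arrays and differed by -0.052 ± 0.23 in WT and 0.021 ± 0.23 in FSAP-/- after BDL, neither of which passed.

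The other genes that fell in WT and rose in FSAP-/- after BDL, beside the 6 members, number 11. They include H2-Eb1, a class II antigen-presenting chain, Nlrc5, a regulator of class I genes, and the interferon-induced genes Gbp4 and Ifi44. The adjusted interaction p of the 11 lay between 0.0786 and 0.129. Also among them are Atad5, LOC235882, Meis2, Rag1ap1, Robo3 and Zc3h12d.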
